A study of Mus musculus with 49 samples.

Results

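Integrated reporters (IRs) at the extremes of repair balance were described in a clonal line of mouse ES cells. The members are 18 of the 36 IRs of the line, and they were chosen by their insertion share in cells treated with sgRNA3. Insertion share is the percentage of reads with an insertion among all reads with an insertion or a deletion. The 9 IRs with the highest share are called insertion-rich, the 9 with the lowest share are called deletion-rich, and the remaining 18 IRs are given for reference. Their sgRNA3 values were selected on and are therefore described with no test, while the rule does not use the sgRNA1 and sgRNA2 values.

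The parent mES cells, EBRTcH3, carried a tetracycline-controlled transactivator driven by ROSA26 and are called EStTA in this form. The line EStTA-PB-B-18 was grown from 1 cell carrying the 36 PiggyBac reporters, each with an EGFP gene under the mPGK promoter and a barcode of its own. Cas9 was directed to the reporter with sgRNA1, sgRNA2 or sgRNA3, and barcode and target site were read together from genomic DNA. There was 1 sample for each of the 3 guides. The labels of the sgRNA1 and sgRNA2 samples share a number that the sgRNA3 label does not, and they do not say what it stands for. Assays were run in triplicate, but the tables do not separate them, so spread is given between IRs of 1 clone and not between cultures. The question addressed is how repair outcomes vary between loci that carry the same target sequence.

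As background, Cas9 cuts DNA a few bases upstream of the PAM, the short motif next to the sequence that the guide matches. The ends are mostly rejoined by non-homologous end-joining, which can restore the site, lose bases or add them. Short repeats on both sides of the break can instead be paired by microhomology-mediated end joining, which deletes one repeat copy and the bases between the repeats. The PGK promoter drives a housekeeping gene of glycolysis, and in TRIP, where many reporters are integrated in parallel, the barcode tells which integration a read came from.

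The guides are shown because the same line was cut at overlapping or separate places of the reporter. Each is written 5′ to 3′ with the PAM in capitals.
sgRNA1: gccgagagtgatcccggcggCGG
sgRNA2: cgccgggatcactctcggcaTGG
sgRNA3: agtgtcacctaaatcgtatgCGG
The sgRNA1 site lies on the strand opposite to the reads at bases 34 to 53 of the aligned read, and the sgRNA2 site lies on the strand of the reads at bases 35 to 54. These guides thus cover nearly the same bases and cut different ends of them. The reads with sgRNA3 run the other way along the reporter, so the place of its site, bases 10 to 29 of those reads, is not on the same coordinates. Of 20 guide bases, 15 are G or C in sgRNA1, 14 in sgRNA2 and 8 in sgRNA3.

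The barcodes of the 3 most extreme IRs of each group and of those next to both thresholds identify the integrations described here. They are 16 bases long and carry no capitals. Insertion-rich IRs come first, then the IRs just outside the thresholds, then the deletion-rich IRs.
BC_30: aaacaggaagacaagc
BC_26: acgtttcaacgaaagt
BC_34: gtgtatggtcgcacaa
BC_25: tggaaaggcagcactg
BC_13: tgacttttacgtacaa
BC_7: gctagactggttccaa
BC_28: tactggtctttaagcc
BC_24: attattgtcctccgca
BC_27: tacgggaagttttaga
BC_31: ctatcttaagctataa
The barcodes of the insertion-rich IRs held 7.22 G or C bases on average (range 4 to 9), against 5.78 in the deletion-rich IRs (range 4 to 7) and 6.56 in the remaining IRs (range 2 to 9). The ranges overlapped.

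With sgRNA3, BC_30 and BC_26 stood apart from all other IRs. The insertion share was 67.9% at BC_30 and 64.3% at BC_26, and the next IR, BC_34, had 47.3%. The other insertion-rich IRs followed closely, down to 42.2% at BC_25, just inside the threshold, with BC_13 just outside it at 42.0%. At the other end the share was 29.3% at BC_31, 31.3% at BC_27 and 32.4% at BC_24. BC_28 lay just inside the lower threshold with 37.1% and BC_7 just outside it with 37.4%. The thresholds therefore passed through a continuous range of values. Group means were 49.4% ± 9.69 (SD, n = 9) in insertion-rich IRs, 33.8% ± 2.38 (SD, n = 9) in deletion-rich IRs and 39.8% ± 1.43 (SD, n = 18) in the rest.

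The tables held 198078 reads of the 36 IRs for sgRNA1, 169141 for sgRNA2 and 210503 for sgRNA3. Members had between 2919 and 10543 reads with sgRNA1, between 2479 and 9307 with sgRNA2 and between 3029 and 11385 with sgRNA3. Depth differed between the groups. With sgRNA3, the insertion-rich BC_30, BC_26, BC_34 and BC_35 had 3270, 3531, 3145 and 3029 reads. The other insertion-rich IRs had at least 5591, and the deletion-rich IRs at least 5069. The same IRs also had the fewest reads of the members with sgRNA1 and sgRNA2. The part of depth in the group contrasts was not tested. Insertions were rare with sgRNA1, and the member with the fewest insertion reads had 52, against 118 with sgRNA2 and 986 with sgRNA3. Shares of insertions with sgRNA1 thus rest on few reads. The intervals given for single IRs are 95% Wilson intervals that count each read as independent. The reads carry no molecular identifiers, so copies of the same molecule may be counted more than once and the intervals may be too narrow. They do not cover spread between cultures.

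The repair balance chosen with sgRNA3 did not separate the groups with sgRNA1. The insertion share was 4.80% ± 1.25 (SD, n = 9) in insertion-rich IRs, with a lowest value of 2.93%, a median of 4.62% and a highest value of 6.97%. In deletion-rich IRs it was 4.77% ± 0.539 (SD, n = 9), with a lowest value of 4.16%, a median of 4.64% and a highest value of 5.70%. The insertion-rich group held both the highest members, BC_30 and BC_26, and the lowest members, BC_35 with 2.93% and BC_19 with 3.85%. Values of the deletion-rich IRs lay between these ends, and 4 of 9 insertion-rich IRs were above the deletion-rich median. The difference in means was 0.0279 percentage points (two-sided exact permutation test, p = 0.953, adjusted p = 0.953). Its direction turned when BC_30 and BC_26 were left out and the groups chosen anew among the other 34 IRs, to -0.389 percentage points.

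With sgRNA2 the mean share was higher in the insertion-rich IRs, but most of this came from the same pair of IRs. The share was 13.0% ± 6.28 (SD, n = 9), with a lowest value of 7.58%, a median of 9.97% and a highest value of 25.7%. In deletion-rich IRs it was 9.75% ± 1.60 (SD, n = 9), with a lowest value of 7.43%, a median of 9.57% and a highest value of 12.3%. Apart from BC_30 and BC_26 the groups lay largely over each other, and 5 of 9 insertion-rich IRs were above the deletion-rich median. The difference of 3.23 percentage points did not pass the threshold (exact permutation test, p = 0.187, adjusted p = 0.341). The difference was 1.64 percentage points without BC_30, and 0.446 percentage points without both IRs and with groups chosen anew (exact permutation test, adjusted p = 0.643). The remaining 18 IRs had a share of 4.65% ± 0.668 (SD) with sgRNA1 and 10.7% ± 0.956 (SD) with sgRNA2, below both groups and between them, respectively.

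The order of the IRs changed between guides. Of the 9 insertion-rich IRs, 2 were among the 9 highest of all 36 with sgRNA1, BC_30 and BC_26, and 2 were among the 9 lowest, BC_35 and BC_19. With sgRNA2, 3 were among the 9 highest (BC_30, BC_26 and BC_34) and 3 among the 9 lowest (BC_35, BC_8 and BC_4). Of the 9 deletion-rich IRs, 2 were among the 9 lowest with sgRNA1 and 3 among the 9 highest, against 4 and 1 with sgRNA2. Each end holds 9 of the 36 IRs, and counts of 2 or 3 among 9 members are near that share. BC_35, ranked 5 with sgRNA3, was ranked 36 with sgRNA1 and 35 with sgRNA2.

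Across the 36 IRs, which share the clone and the libraries, the shares with sgRNA3 and sgRNA2 had a Pearson's r of 0.809 and a Spearman's rho of 0.211. Without BC_26 and BC_30 the values were 0.195 and 0.0637 (n = 34), so the linear relation rested on these IRs. For sgRNA3 and sgRNA1 r was 0.412 and rho 0.00103 (n = 36), and r was -0.260 without the pair (n = 34). The shares with sgRNA1 and sgRNA2, whose sites overlap and whose labels share a number, had an r of 0.669 and a rho of 0.451 (n = 36). Without the pair these were 0.314 and 0.348 (n = 34). Overlap of sites and a shared number cannot be told apart here.

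The step in insertion share from sgRNA1 to sgRNA2 was larger on average in insertion-rich IRs. It was compared in a single test apart from the group measures below, and its p is not adjusted. The odds of an insertion over a deletion were higher with sgRNA2 at all 36 IRs, by 2.81-fold on average in insertion-rich IRs and 2.14-fold in deletion-rich IRs (geometric means). On the natural log scale the step was 1.03 ± 0.264 (SD, n = 9) in the insertion-rich group, with a lowest value of 0.799, a median of 0.967 and a highest value of 1.53. In the deletion-rich group it was 0.762 ± 0.164 (SD, n = 9), with a lowest value of 0.507, a median of 0.716 and a highest value of 1.06. All 9 insertion-rich IRs were above the deletion-rich median, 3 of them were above every deletion-rich IR, and 6 deletion-rich IRs were below every insertion-rich IR. The step was largest at BC_30, where the odds rose 4.62-fold, and smallest among members at BC_24, with 1.66-fold.

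The step differed by 0.271 on the natural log scale (two-sided exact permutation test, p = 0.0155, 9 against 9 IRs). It was 1 test beside the family of 18 group tests, the pattern tests and the locus tests described here, and its p is not adjusted for them. The remaining 18 IRs lay between the groups, with a step of 0.905 ± 0.179 (SD). Without BC_30 and BC_26 and with groups chosen anew, the difference was 0.145 (exact permutation test, p = 0.0450), and with the 6 highest against the 6 lowest IRs it was 0.435 (exact permutation test, p = 0.00433). Both of these settings were chosen after seeing the data.

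None of the group measures with sgRNA1 or sgRNA2 passed the threshold. The family held 18 tests, 9 measures with each of 2 guides, and 0 of 18 (0% of tests called) had an adjusted p under 0.05 by the exact permutation test with Benjamini-Hochberg adjustment. The count at an unadjusted p under 0.05 was also 0. The smallest p that 9 against 9 IRs allow is 4.11e-05, so the design could pass the threshold, and a p that misses it does not show that values did not differ.

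Insertions per read did not pass the threshold with either tested guide. With sgRNA1, 2.21% ± 0.278 (SD, n = 9) of reads carried an insertion in insertion-rich IRs and 2.42% ± 0.392 (SD, n = 9) in deletion-rich IRs. The difference was -0.215 percentage points (exact permutation test, p = 0.196, adjusted p = 0.341), and 2 of 9 insertion-rich IRs were above the deletion-rich median. With this guide the group chosen for many insertions thus had a slightly lower mean. With sgRNA2 the values were 5.84% ± 1.45 (SD, n = 9) and 4.90% ± 0.648 (SD, n = 9), a difference of 0.937 percentage points (exact permutation test, p = 0.0982, adjusted p = 0.341). Here 6 of 9 insertion-rich IRs were above the deletion-rich median, with BC_30 highest at 8.51% and BC_24 lowest among members at 3.91%. Without BC_30 and BC_26 and with groups chosen anew, the differences were -0.137 and 0.550 percentage points.

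Total mutation frequency, the percentage of an IR's reads with any lesion, was spread more widely in the insertion-rich group, because of BC_30 and BC_26. With sgRNA1 it was 49.9% ± 10.4 (SD, n = 9), from 32.1% at BC_30 over a median of 53.0% to 62.5% at BC_35. Deletion-rich IRs had 52.5% ± 5.31 (SD, n = 9), from 40.8% over a median of 53.2% to 59.8%. The insertion-rich group therefore held the member with the lowest frequency and the member with the highest. With sgRNA2 the values were 51.8% ± 11.3 (SD, n = 9), from 31.8% at BC_26 over a median of 55.0% to 64.1% at BC_35. Deletion-rich IRs had 54.2% ± 5.86 (SD, n = 9), from 40.4% over a median of 56.3% to 60.3%.

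The difference in mutation frequency was -2.56 percentage points with sgRNA1 (exact permutation test, p = 0.522, adjusted p = 0.651) and -2.44 percentage points with sgRNA2 (exact permutation test, p = 0.578, adjusted p = 0.651). With each guide 4 of 9 insertion-rich IRs were above the deletion-rich median. Both differences turned when BC_30 and BC_26 were left out and the groups chosen anew, to 1.79 and 2.37 percentage points. Among the other 7 insertion-rich IRs the SD was 4.78 with sgRNA1 and 4.99 with sgRNA2, below that of the deletion-rich IRs. With sgRNA3, given as description, the means were 64.7% ± 8.87 and 66.9% ± 5.31 (SD, n = 9 each).

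Deletions made up most of the lesions with sgRNA1 and sgRNA2, and their frequency followed the same picture. It was 45.9% ± 10.3 against 48.3% ± 5.08 of reads with sgRNA1 (SD, n = 9 each), a difference of -2.33 percentage points (exact permutation test, p = 0.552, adjusted p = 0.651). With sgRNA2 it was 43.1% ± 11.6 against 45.9% ± 5.59 (SD, n = 9 each), a difference of -2.78 percentage points (exact permutation test, p = 0.528, adjusted p = 0.651). In both cases 4 of 9 insertion-rich IRs were above the deletion-rich median, and BC_35 had the highest value of the members, with 58.9% and 57.2%. Without BC_30 and BC_26 and with groups chosen anew, these differences turned to 1.91 and 2.19 percentage points.

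Reads with several changes at once, called complex, were few in both groups. With sgRNA1 they made up 1.76% of reads in insertion-rich and 1.77% in deletion-rich IRs (exact permutation test, p = 0.898, adjusted p = 0.951, n = 9 each), and 4 of 9 insertion-rich IRs were above the deletion-rich median. With sgRNA2 they made up 2.81% ± 0.768 and 3.41% ± 0.606 (SD, n = 9 each). The difference of -0.597 percentage points did not pass the threshold (exact permutation test, p = 0.0863, adjusted p = 0.341), although 1 of 9 insertion-rich IRs was above the deletion-rich median. BC_18 had the highest value among members, 4.21%, and BC_26 the lowest, 1.52%. Without BC_26 and BC_30 and with groups chosen anew, the difference was -0.368 percentage points.

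BC_30 and BC_26 had the highest insertion shares of the 36 IRs with every guide. With sgRNA1 the insertion share was 6.97% at BC_30 (interval 5.52% to 8.77%) and 6.51% at BC_26 (interval 5.28% to 8.01%), and the highest of the others was 6.00%, inside both intervals. With sgRNA2 it was 25.7% (interval 22.8% to 28.8%) and 21.4% (interval 18.9% to 24.1%), against at most 13.7% elsewhere, at BC_34. By these intervals the pair lay apart from the other IRs with sgRNA2, while with sgRNA1 it did not lie apart from the next IR. With sgRNA3, by which they were chosen, the intervals were 65.6% to 70.1% and 62.0% to 66.6%.

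The pair also had the lowest mutation frequencies of the line. With sgRNA1 the frequency was 32.1% at BC_30 and 34.2% at BC_26, and 40.8% at the lowest of the others, BC_1. With sgRNA2 it was 35.1% and 31.8%, against 40.4% at BC_1. With sgRNA3 it was 51.7% and 49.0%, against 55.0% at BC_1. BC_1 is a deletion-rich IR, so low mutation frequency was found in both groups.

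The high insertion share of the pair went with few deletions, more than with many insertions. Deletions were found in 28.5% of reads at BC_30 and 30.3% at BC_26 with sgRNA1, and in 24.6% and 23.8% with sgRNA2. The lowest of the other 34 IRs had 37.2% with sgRNA1 and 33.4% with sgRNA2. Insertions with sgRNA1 were found in 2.14% and 2.11% of reads, within the range of the others, 1.78% to 2.94%. With sgRNA2 they were found in 8.51% and 6.46%, where the highest of the others, BC_34, had 7.70%. BC_30 was therefore above every other IR in insertions per read with sgRNA2, and BC_26 was not. With insertion share taken as residuals on mutation frequency over the IRs, the difference between the groups was 2.38 percentage points with sgRNA2 (exact permutation test, p = 0.0789, adjusted p = 0.374) and -0.192 with sgRNA1.

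Across the IRs the relation of insertion share to mutation frequency is described with and without this pair, as the IRs share a clone and a library. Pearson's r was -0.679 with sgRNA1, -0.701 with sgRNA2 and -0.562 with sgRNA3 (n = 36), and Spearman's rho was -0.386, -0.277 and -0.173. Without BC_26 and BC_30 r was -0.434, -0.244 and 0.0699 (n = 34). The linear relation was thus weaker without the pair with each guide, and with sgRNA3 it was near 0. The other 7 insertion-rich IRs had an insertion share of 4.24% ± 0.669 (SD) with sgRNA1 and 9.97% ± 1.84 (SD) with sgRNA2. All 34 IRs apart from the pair, these 7 included, had means of 4.60% and 10.3%, slightly above these values.

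Mean deletion sizes were slightly lower in insertion-rich IRs with both tested guides, by less than the spread between IRs. The mean size of single deletions with sgRNA1 was 6.39 bp ± 0.704 (SD, n = 9), from 5.39 bp over a median of 6.59 bp to 7.24 bp. In deletion-rich IRs it was 6.81 bp ± 0.726 (SD, n = 9), from 5.56 bp over a median of 6.73 bp to 7.95 bp. The groups overlapped over most of this range, with BC_25 lowest and BC_2 highest. With sgRNA2 the mean was 7.78 bp ± 0.652 (SD, n = 9), from 6.95 bp over a median of 7.70 bp to 8.90 bp. Deletion-rich IRs had 8.25 bp ± 0.688 (SD, n = 9), from 7.43 bp over a median of 7.92 bp to 9.23 bp.

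The difference in size was -0.421 bp with sgRNA1 (exact permutation test, p = 0.227, adjusted p = 0.341) and -0.460 bp with sgRNA2 (exact permutation test, p = 0.162, adjusted p = 0.341). Of 9 insertion-rich IRs, 4 were above the deletion-rich median with sgRNA1 and 3 with sgRNA2. With sgRNA2, BC_26 and BC_30 had the smallest means of all 36 IRs, 6.95 bp and 7.02 bp, below the 7.43 bp of the next IR. Without this pair and with groups chosen anew, the differences were -0.131 bp and -0.214 bp. With sgRNA3, as description, the order was the opposite, 7.94 bp in insertion-rich and 7.58 bp in deletion-rich IRs. Mean size had an r of 0.786 and a rho of 0.799 between sgRNA1 and sgRNA2 (n = 36). Without BC_26 and BC_30 r was 0.735 (n = 34).

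Long deletions, of 10 bp or more, were also less frequent on average in insertion-rich IRs with sgRNA1 and sgRNA2, without passing the threshold. They made up 20.8% ± 3.86 of single deletions in insertion-rich and 23.1% ± 3.83 in deletion-rich IRs with sgRNA1 (SD, n = 9 each), a difference of -2.27 percentage points (exact permutation test, p = 0.226, adjusted p = 0.341). With sgRNA2 they made up 26.5% ± 3.72 and 28.8% ± 4.21 (SD, n = 9 each), a difference of -2.36 percentage points (exact permutation test, p = 0.222, adjusted p = 0.341). Of 9 insertion-rich IRs, 2 were above the deletion-rich median with sgRNA1 and 3 with sgRNA2. BC_2, a deletion-rich IR, had the highest values among members, 28.9% and 35.2%. The differences were -1.02 and -1.31 percentage points without BC_30 and BC_26 and with groups chosen anew. With sgRNA3, as description, the order was the opposite, with 24.9% and 22.9%.

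Short deletions of 1 to 2 bp showed where the pair differed with sgRNA2. They made up 29.3% ± 5.86 of single deletions in insertion-rich and 25.7% ± 2.67 in deletion-rich IRs (SD, n = 9 each), with 39.5% at BC_26 and 37.6% at BC_30. With sgRNA1 the means were 16.0% and 16.1%, while BC_30 had 19.3% and BC_26 14.9%, so BC_30 was above both means and BC_26 below them at the overlapping site. Most deletions with sgRNA1 were of 3 to 9 bp, 63.2% ± 3.68 and 60.8% ± 3.06 (SD, n = 9 each). These size classes are given as description.

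Deletions with repeated ends, the kind that microhomology-mediated end joining leaves, were those that could be shifted by at least 2 bases with the same resulting sequence. With sgRNA1 they made up 59.4% ± 3.47 (SD, n = 9) of single deletions in insertion-rich IRs, from 53.5% over a median of 60.9% to 64.2% at BC_26. In deletion-rich IRs they made up 57.3% ± 2.84 (SD, n = 9), from 51.9% at BC_31 over a median of 58.4% to 59.7%. They were thus the majority in every member with sgRNA1. With sgRNA2 they were the minority, with 25.3% ± 2.91 (SD, n = 9), from 21.1% at BC_26 over a median of 24.4% to 30.05%. Deletion-rich IRs had 27.3% ± 2.72 (SD, n = 9), from 24.1% over a median of 27.4% to 32.3% at BC_2.

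The difference was 2.01 percentage points with sgRNA1 (exact permutation test, p = 0.197, adjusted p = 0.341), with 6 of 9 insertion-rich IRs above the deletion-rich median. The loss of CCG, described below, counts among these deletions. By itself it differed by 3.37 percentage points, more than the whole share did. With sgRNA2 the difference in the whole share was -2.06 percentage points (exact permutation test, p = 0.140, adjusted p = 0.341), with 3 of 9 above. The signs were thus opposite at overlapping sites, and BC_26 was the highest member with one guide and the lowest with the other. Across IRs the shares with these guides had an r of 0.00998 and a rho of 0.0538 (n = 36), and 0.216 and 0.222 without BC_26 and BC_30 (n = 34). Without this pair and with groups chosen anew, the differences were 1.10 and -1.02 percentage points. Where at least 3 repeated bases were asked for, the difference with sgRNA2 turned to 0.161 percentage points. With sgRNA3, as description, the means were 31.2% ± 5.62 and 30.02% ± 3.23 (SD, n = 9 each), with BC_26 highest at 41.4% and BC_25 lowest at 22.7%.

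The most frequent deletions are shown on the guide's site, with the lost bases in capitals, because the patterns below are named by the bases they lose. The sgRNA1 site is written here on the strand of the reads.
sgRNA1, loss of CCG: ccgccgCCGggatcactctcggc
sgRNA1, loss of C: ccgccgcCgggatcactctcggc
sgRNA1, loss of CC: ccgccgCCgggatcactctcggc
sgRNA2, loss of G: cgccgggatcactctcgGcatgg
sgRNA2, loss of CG: cgccgggatcactctCGgcatgg
sgRNA2, loss of CTCTCGGCA: cgccgggatcaCTCTCGGCAtgg
sgRNA3, loss of CGTAT: agtgtcacctaaatCGTATgcgg
sgRNA3, loss of ATCG: agtgtcacctaaATCGtatgcgg
sgRNA3, loss of CG: agtgtcacctaaatCGtatgcgg
The first of these, the loss of 1 of 3 adjoining CCG repeats, can be shifted by 6 bases. The other deletions shown can be shifted by at most 2 bases.

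The loss of CCG was by far the most frequent deletion with sgRNA1, with 41.7% of single deletions over the 36 IRs. It made up 43.7% ± 3.32 (SD, n = 9) in insertion-rich IRs, from 39.2% over a median of 42.8% to 49.9%. In deletion-rich IRs it made up 40.3% ± 1.72 (SD, n = 9), from 37.5% over a median of 40.8% to 42.7%. BC_26 had the highest value of all 36 IRs, 49.9%, and BC_30 had 45.1%. The groups overlapped, but 8 of 9 insertion-rich IRs were above the deletion-rich median.

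Of the 12 deletion patterns with at least 1% of single deletions with sgRNA1, 0 passed an adjusted p of 0.05 (0% called) and 1 had an unadjusted p under 0.05. That pattern was the loss of CCG, with a difference of 3.37 percentage points (exact permutation test, p = 0.0121, adjusted p = 0.146). The 12 patterns covered 72.5% of single deletions, and 6 had a higher mean in insertion-rich IRs and 6 a lower one. The other frequent patterns were closer between the groups. The loss of C made up 6.52% and 6.61% (exact permutation test, p = 0.869, adjusted p = 0.869), and the loss of CC 4.69% and 5.20% (exact permutation test, p = 0.188, adjusted p = 0.451). In both, 4 of 9 insertion-rich IRs were above the deletion-rich median.

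With sgRNA2 deletions were spread over more patterns. The loss of G was the most frequent, with 13.9% ± 4.86 of single deletions in insertion-rich and 11.7% ± 1.40 in deletion-rich IRs (SD, n = 9 each; exact permutation test, p = 0.273, adjusted p = 0.932). It was highest at BC_26 with 23.9% and BC_30 with 19.9%, and 3 of 9 insertion-rich IRs were above the deletion-rich median. The mean difference of 2.14 percentage points therefore came from few IRs, and the highest of the other 34, BC_34, had 14.9%. The loss of CG made up 8.22% and 7.62%, and the loss of CTCTCGGCA 4.73% and 5.10% (exact permutation test, adjusted p = 0.932 for each). Of 9 insertion-rich IRs, 6 and 4 were above the deletion-rich median.

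Of 23 patterns tested with sgRNA2, which covered 64.6% of single deletions, 0 passed the adjusted threshold (0% called) and 1 had an unadjusted p under 0.05. That pattern was the loss of GC directly after the cut, at base 52, and it is named because its values were seen. It made up 2.63% ± 0.574 (SD, n = 9) in insertion-rich and 1.88% ± 0.442 (SD, n = 9) in deletion-rich IRs (exact permutation test, p = 0.00699, adjusted p = 0.161). All 9 insertion-rich IRs were above the deletion-rich median. Of the 23 patterns, 11 had a higher mean in insertion-rich IRs and 12 a lower one. The patterns are shares of the same deletions, so these counts do not measure a direction.

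With sgRNA3 the frequent deletions are a description, since they come from the reads that chose the members. The loss of CGTAT made up 11.0% ± 2.61 of single deletions in insertion-rich and 12.8% ± 2.45 in deletion-rich IRs (SD, n = 9 each). The loss of ATCG made up 10.8% ± 2.43 and 8.55% ± 4.01, and the loss of CG 6.40% ± 1.88 and 8.71% ± 2.43 (SD, n = 9 each). Neither group was ahead in all 3.

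Inserted bases are given on the strand of the reads, which for sgRNA1 is opposite to that of the guide. The leading base of sgRNA1, C on the reads, is therefore G on the strand of the guide, the same base that leads with sgRNA2. With sgRNA1 the most frequent kind of insertion was a single C, 44.9% ± 6.51 of single insertions in insertion-rich and 50.4% ± 7.90 in deletion-rich IRs (SD, n = 9 each). The difference was -5.52 percentage points (exact permutation test, p = 0.125, adjusted p = 0.341), and 1 of 9 insertion-rich IRs was above the deletion-rich median. The value was highest at BC_24, 62.1%, and lowest at BC_26, 31.7%. A single T instead made up 14.7% ± 5.06 in insertion-rich and 8.82% ± 3.92 in deletion-rich IRs (SD, n = 9 each), given as description. At BC_26 single T insertions made up 22.0%.

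With sgRNA2 the most frequent insertion was a single G, 60.0% ± 4.79 in insertion-rich and 55.4% ± 4.84 in deletion-rich IRs (SD, n = 9 each). The difference of 4.65 percentage points had the lowest p of the family (exact permutation test, p = 0.0584, adjusted p = 0.341), and 7 of 9 insertion-rich IRs were above the deletion-rich median. BC_30 with 66.2% and BC_26 with 65.0% were above the other 34 IRs, whose highest value was 64.3%, and BC_24 was lowest with 47.0%. The leading base was thus less frequent in insertion-rich IRs with sgRNA1 and more frequent with sgRNA2, in neither case past the threshold. Without BC_30 and BC_26 and with groups chosen anew, these differences were -3.38 and 2.01 percentage points. With sgRNA3 a single T made up 92.4% ± 1.27 and 93.7% ± 1.43 (SD, n = 9 each), as description.

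Mapped positions were available for 7 of the 9 insertion-rich IRs, 7 of the 9 deletion-rich IRs and 13 of the 18 remaining IRs. BC_30 and BC_26, the IRs that stood apart, were among those not mapped, so nothing can be said of their surroundings. The positions are those of the deposited read alignments on mm9 and were not resolved to the inserted base, so distances and calls of exons or introns hold for the aligned position. Genes are from the GENCODE annotation of that assembly. The mapped insertion-rich IRs lay on 5 chromosomes and the mapped deletion-rich IRs on 7.

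Distances to the nearest transcription start site were lower on average in insertion-rich IRs, without passing the threshold. The median distance was 2578 bp, from 327 bp at BC_8 to 46013 bp at BC_19. For deletion-rich IRs it was 10878 bp, from 2912 bp at BC_31 to 135947 bp at BC_32. The ranges overlapped. Nearer than the deletion-rich median were 6 of 7 insertion-rich, 3 of 7 deletion-rich and 4 of 13 remaining mapped IRs. On the log10 scale (distance plus 1 bp) the means were 3.51 ± 0.649 and 4.19 ± 0.514 (SD, n = 7 each), a difference of -0.675 (exact permutation test, p = 0.0501, adjusted p = 0.150 over 3 locus tests). With start sites of protein-coding genes alone it was -0.493 (exact permutation test, p = 0.216, adjusted p = 0.649). The remaining mapped IRs had a median of 16060 bp.

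Inside genes were 3 of 7 insertion-rich and 2 of 7 deletion-rich IRs (Fisher's exact test, two-sided, p = 1, adjusted p = 1). BC_25 was mapped to chr13:81829966 in an intron of Polr3g, which encodes a subunit of RNA polymerase III. BC_35 was mapped to chr3:123391370 in an intron of Ndst3, which encodes a heparan sulfate-modifying enzyme. BC_8 was mapped to chr8:97848836 in an exon, where the annotation lists both Tepp and Zfp319, a zinc finger protein gene whose start lay 327 bp away. Of the deletion-rich IRs, BC_31 was mapped to chr11:3033098 in an exon of Sfi1, a centrosomal protein gene, and BC_17 to chr14:61647523 in an intron of Tnfrsf19, a receptor gene of the TNF receptor family. Of the remaining mapped IRs, 4 of 13 were inside genes, a share near that of both groups.

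The other extreme IRs with a mapped position were intergenic. BC_34 was mapped to chr17:56973009, 2578 bp from the start of Rfx2, a transcription factor gene. BC_27 was mapped to chr17:10530910, 17816 bp from the start of Qk, which encodes an RNA-binding protein. BC_24 was mapped to chr12:59340290, 27499 bp from the start of Sstr1, a somatostatin receptor gene. The insertion-rich BC_34 was the nearest of these 3 to a start site. BC_31, the most deletion-rich IR and inside a gene, was almost as near, at 2912 bp.

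The GC content of the 2000 bp around the position was alike in range, 43.0% ± 4.98 in insertion-rich and 43.6% ± 5.21 in deletion-rich IRs (SD, n = 7 each). The difference was -0.621 percentage points (exact permutation test, p = 0.820, adjusted p = 1), and it turned to 1.37 in windows of 20000 bp. Values ran from 37.2% at BC_19 to 51.5% at BC_8 in the insertion-rich group and from 35.8% at BC_24 to 53.4% at BC_31 in the deletion-rich group. Reporter expression was not compared. The authors tie both the mapping and the expression reads of this line to samples of another series, and of these only the mapped positions were used.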

How the data were processed

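Per the labels, genomic DNA of 1 line was profiled with 3 guides, 1 sample each. The authors aligned reads to the unedited target, called lesions and deposited 1 entry per read with its alignment score. The authors mapped IRs with Bowtie2 2.0 on mm9. The authors tie the line's mapping and expression reads to samples of another, linked series. Mapped positions were used as a property of the reporter, and the 2 columns of barcode counts were not used. Reads were counted per barcode and lesion class with Python 3.11.15, NumPy 2.4.6, pandas 2.3.3 and SciPy 1.17.1. Of all reads, 97.2%, 97.2% and 96.6% belonged to the 36 IRs (sgRNA1, sgRNA2 and sgRNA3). Sizes, repeated ends and patterns used reads with a single deletion, placed at the leftmost equal position. Groups of 9 IRs were compared by two-sided exact permutation of the 48620 assignments, with Benjamini-Hochberg adjustment over 18 tests, over the patterns of a guide or over 3 locus tests, at 0.05. The p covers spread between IRs of 1 clone. Members and lists were chosen with earlier results of these data known. Named IRs are the 3 highest and 3 lowest with sgRNA3, those next to the thresholds and the extremes of each measure. Named patterns are the 3 most frequent per guide and, after its values were seen, the loss of GC with sgRNA2. BC_35, BC_19, BC_8, BC_4, BC_1 and BC_17 are also named for their ranks or positions, chosen after their values were seen. Alternatives were other group sizes, other definitions of share, size and repeated ends, a score filter, protein-coding start sites, medians, logits, residuals on mutation frequency and left-out IRs. The scripts were tested on simulated data.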

Additional observations from a re-analysis of the deposited data

Results flagged for a closer look

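The step in insertion share from sgRNA1 to sgRNA2 was larger on average in insertion-rich than in deletion-rich IRs. The difference was 0.271 on the natural log scale of the odds (two-sided exact permutation test, p = 0.0155, 9 against 9 IRs), and it calls for a closer look because a test of the difference itself gave a p under 0.05. The p was not adjusted for the other tests. The cause was not tested.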

How the results depend on the processing

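Of 112 alternatives, 95 kept the direction and the side of the threshold of their result, and 17 turned a direction. No alternative took a group test past the threshold, and the lowest adjusted p among them was 0.250. The insertion share with sgRNA1 had a mean difference near 0 and turned to -0.122 with groups chosen by 1-base insertions, -0.0822 with 12 against 12 IRs, -0.145 with groups chosen on a share that counts complex reads in its denominator, -0.0287 with medians, -0.0180 on the logit scale, -0.0811 with low scores left out, -0.192 with residuals on mutation frequency and -0.389 without the 2 IRs of lowest mutation frequency. Without these 2 IRs, BC_26 and BC_30, the differences also turned in mutation frequency (1.79 with sgRNA1, 2.37 with sgRNA2), deletion frequency (1.91 and 2.19) and complex frequency with sgRNA1 (0.0188). Other turns were complex frequency with sgRNA1 in 6 against 6 IRs (0.0787), deletion frequency with sgRNA1 as residuals (0.187), repeated ends of at least 3 bases with sgRNA2 (0.161) and GC content in 20000 bp (1.37). For all of these the cause was not tested. Leaving out each IR in turn (342 values, lowest adjusted p 0.214) turned 12 values. The range was -0.243 to 0.261 for insertion share with sgRNA1, -4.17 to 0.0557 for mutation frequency with sgRNA2, and -0.0848 to 0.0364 for complex frequency with sgRNA1. For insertion share with sgRNA2 it was 1.64 to 3.91. The step between guides, in alternatives chosen after seeing the data, ranged from 0.208 to 0.308 (exact permutation p from 0.00498 to 0.0340) when each IR was left out in turn. With a pattern minimum of 0.5%, 22 patterns with sgRNA1 and 42 with sgRNA2 were tested and 0 passed. No paired analysis was possible because each guide had 1 sample and its replicate assays were not separated, so replicates could not be matched between guides. The step between guides was taken within each IR. Depth limits the measures of insertions with sgRNA1, with 52 insertion reads at the lowest member.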
